A study of Mus musculus with 10 samples.

Results

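The genes described here encode the ephrins and their Eph receptors, the Slits and their Robo receptors, and the netrins and netrin-Gs with the netrin receptors Dcc, Neo1 and Unc5a to Unc5d. They were taken by symbol from the genes measured on the arrays, by a rule that uses no measured value but was written with earlier results of these data known, and 39 of the 19938 genes were found. Each gene was represented by 1 probe set, the one with the highest mean over all 10 arrays. Ephb2 and Ntng2 are not analysed here, because no probe set carried either symbol alone. Of the 39 genes, 9 encode EphA receptors, 4 EphB receptors, 5 ephrin-As, 3 ephrin-Bs, 3 Slits, 4 Robos, 5 netrins or netrin-Gs and 6 netrin receptors.

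These families steer growing axons and migrating cells. Eph receptors are receptor tyrosine kinases that are activated on contact by ephrins on a neighbouring cell; ephrin-As are tethered to the membrane by a lipid anchor and ephrin-Bs span it, so that ephrins can also signal back into the cell that carries them. Slits are secreted proteins that repel axons through Robo receptors. Netrin-1 is a secreted cue that attracts axons through Dcc and repels them through Unc5 receptors, alone or together with Dcc, while netrin-Gs are membrane-anchored relatives that bind other partners at synapses.

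The cells were mouse neurons of strain 129Sv-C57Bl/6, labelled as terminally differentiated and kept in culture. One group of 5 samples (a to e) received SP600125, a small molecule that blocks JNK, the kinase family that phosphorylates Jun, at 25 µM, given 3 times with 2 hours between doses. The other group of 5 samples (a to e) received the solvent DMSO on the same schedule. Samples a and b of each group belonged to drug batch 1, and samples c, d and e to drug batch 2, a batch being a lot of SP600125. All samples share the strain and cell type, and no genetic change is named. An inhibitor of this kind can act on other kinases too, and there is no second inhibitor or kinase mutant among the samples. The samples are labelled as biological replicates, without saying whether they were separate cultures, so the p-values reflect the spread among these arrays alone, and that spread may be technical.

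Values are log2 expression values from whole-transcript arrays, and a change is SP600125 minus DMSO on that scale. A gene is said to have risen or fallen where limma, fitted to all 19938 genes with drug batch as a term, gave a Benjamini-Hochberg adjusted p under 0.05. The number of arrays limits the precision. Array medians over all probe sets lay between 5.51 and 5.61 for DMSO and between 5.63 and 5.71 for SP600125, and the SD over probe sets was 2.00 to 2.05 for DMSO and 1.93 to 1.98 for SP600125, so the treated arrays spanned a narrower range. As a yardstick for signal without expression, the 95th percentile of 1015 olfactory receptor genes was 5.26 on DMSO and 5.65 on SP600125 arrays. All 12 neuronal markers checked lay above that level, and so did all 7 progenitor, all 8 fibroblast and mural, 6 of 8 astrocyte, 6 of 7 oligodendrocyte, 5 of 8 endothelial and 2 of 6 microglial markers, so signal of other cell types was present beside that of neurons. In such bulk RNA, fewer cells of a type and less RNA per cell cannot be told apart.

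After SP600125, 21 of the 39 guidance genes fell, 3 rose and 15 did not pass the test. By the brightest probe set, the falls were spread over every family: 6 EphA and 2 EphB receptors, 3 ephrin-As, 2 ephrin-Bs, 2 Slits, 2 Robos, 1 netrin-G and 3 netrin receptors. The netrin-G gene Ntng1 and the EphB gene Ephb1 each had another probe set that moved up, by 0.19 and 0.36. Their falls thus depend on the probe set. Efna3, which encodes ephrin-A3, fell most (−0.79, SE 0.09, n = 5 per group), followed by the repellent Slit2 (−0.61, SE 0.10) and the receptor gene Epha3 (−0.57, SE 0.08). Across all genes 29.9% fell and 17.0% rose by the same rule, against 53.8% and 7.69% of the guidance genes. The median change was −0.23 over the 39 genes and −0.03 over all genes. With the median over the probe sets of a gene in place of the brightest one, 18 guidance genes fell and the median change over all 39 was −0.14.

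The comparison with all genes depends on signal level. Of the 39 genes, 34 lay above the olfactory receptor level in at least 1 group, and among them 21 fell and 0 rose, by limma. Among all 12502 genes above that level 46.4% fell and 7.94% rose, so falls were common among genes with clear signal. That split uses either group, and Epha2, Epha6 and Epha8, 3 of the 21 that fell, passed it through the DMSO arrays only, so these counts are a description. Split instead by the mean over all 10 arrays, 35 guidance genes had a mean of at least 5, of which 22 fell and 1 rose by limma, with a median change of −0.26. Of all 13709 genes with such a mean 44.6% fell and 11.8% rose, with a median change of −0.14. The 5 guidance genes not above the olfactory receptor level (Epha1, Efna1, Robo3, Robo4 and Ntn5) had changes from 0.13 to 0.33. The 3 that rose are among them. Of all 7436 genes not above that level 32.2% rose by limma, with a median change of 0.13.

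**Figure D1:**
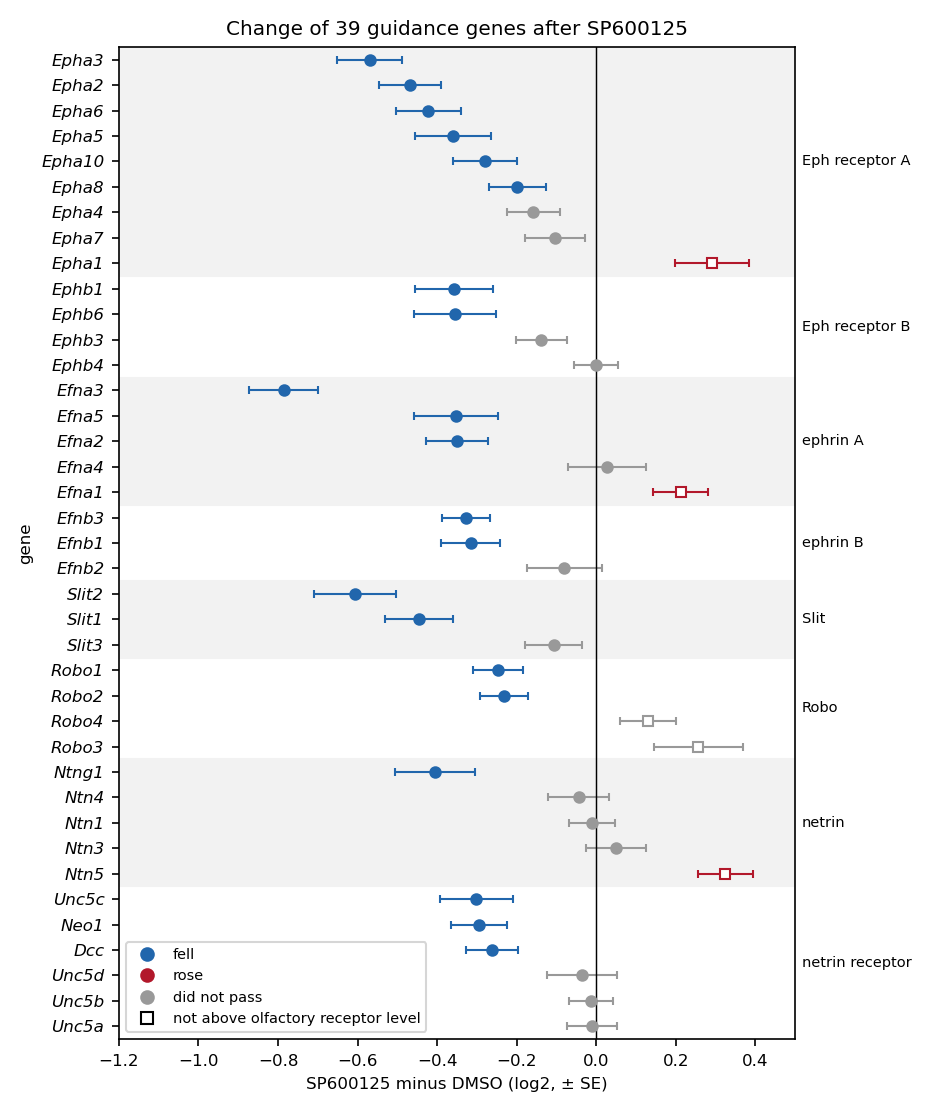
Change of each of the 39 guidance genes (SP600125 minus DMSO, log2, horizontal axis) with its SE from limma, grouped by role; blue marks genes that fell, red genes that rose, grey genes that did not pass, and open squares genes not above the olfactory receptor level. The 21 falls run from −0.79 (Efna3) to −0.20 (Epha8), and all 3 rises are open squares.

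In 10 of the 39 genes (25.6%) every SP600125 array lay below every DMSO array, against 16.4% of all genes, and in 1 (2.56%) every SP600125 array lay above, against 6.65% of all genes. All 10 lay above the olfactory receptor level, where the shares without overlap were close: 29.4% of the guidance genes and 25.8% of all genes. That level can be passed in either group, and Epha2 and Epha6 passed it through the DMSO arrays only. Shares above the level are therefore a description. The 10 were Epha2, Epha3, Epha6, Efna3, Efnb1, Efnb3, Robo1, Robo2, Dcc and Neo1, and the 1 was Ntn5. The falls of 2 of the 39 genes (5.13%), Efna3 and Slit2, reached 1.5-fold, against 275 genes of the whole array (1.38%) and 272 of those above the olfactory receptor level (2.18%). The changes were thus mostly moderate shifts that the small spread between arrays made detectable: the SD over the 5 DMSO arrays was 0.03 to 0.30 for the 39 genes.

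To show the DNA upstream of genes that fell, promoter stretches are printed for the 3 with the largest falls that hold a CCAAT box, the motif bound by the factor NF-Y. They are the 250 bases before the transcription start from RefSeq (GRCm38.p6), 5′ to 3′ on the strand of the gene, with CCAAT or its reverse complement ATTGG in capitals. Epha6 lies at chr16:60605532-60605781 on the minus strand, Ephb1 at chr9:102354694-102354943 on the minus strand and Efnb1 at chrX:99135811-99136060 on the plus strand.
Epha6: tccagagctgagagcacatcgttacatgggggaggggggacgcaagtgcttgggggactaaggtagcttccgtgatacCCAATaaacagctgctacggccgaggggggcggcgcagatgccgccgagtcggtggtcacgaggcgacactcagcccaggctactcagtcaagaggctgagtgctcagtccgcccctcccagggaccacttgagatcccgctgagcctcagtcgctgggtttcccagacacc
Ephb1: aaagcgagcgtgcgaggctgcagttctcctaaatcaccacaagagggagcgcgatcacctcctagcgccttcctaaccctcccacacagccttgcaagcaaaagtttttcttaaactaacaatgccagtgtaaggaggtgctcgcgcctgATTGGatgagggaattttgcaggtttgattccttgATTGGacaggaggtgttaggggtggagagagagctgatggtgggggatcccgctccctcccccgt
Efnb1: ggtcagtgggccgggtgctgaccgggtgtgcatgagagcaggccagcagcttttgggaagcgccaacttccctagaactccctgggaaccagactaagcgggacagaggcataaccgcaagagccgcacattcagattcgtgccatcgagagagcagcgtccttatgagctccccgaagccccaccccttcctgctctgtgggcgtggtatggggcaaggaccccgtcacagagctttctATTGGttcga

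The first base of the match lay 172 bases before the start in Epha6, 100 and 65 bases before it in Ephb1 and 10 bases before it in Efnb1. A promoter was listed for 34 of the 39 genes, 4 of them with more than 1, and CCAAT was searched on both strands. It was present in 12 of the 34 genes (35.3%) and in 37.5% of all 27025 genes with a promoter. Of the 18 listed genes that fell 6 held it, and of the 13 that did not pass 6 did, so the letters were no more frequent among the genes that fell. The AP-1 motif TGANTCA (both strands, no overlap with CCAAT), bound by Jun and Fos proteins, was found in 0 of the 34 and in 7.82% of all genes. Such a match describes the letters in this window only.

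EphA receptors were the most numerous family, and 6 of 9 fell, 1 rose and 2 did not pass. Epha3, a receptor for ephrin-As, read 7.23, 6.91, 7.06, 7.07 and 7.07 on DMSO arrays a to e and 6.37, 6.67, 6.64, 6.36 and 6.45 on SP600125 arrays a to e. Every treated array was lower than every control array, with the b arrays closest to each other. The change was −0.57 (SE 0.08, limma adjusted p = 0.000255), −0.55 in drug batch 1 and −0.58 in drug batch 2.

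Epha2, an Eph receptor best known from epithelia and tumours, read 5.84, 5.76, 5.87, 6.02 and 5.95 on the DMSO arrays and 5.5, 5.60, 5.42, 5.20 and 5.37 on the SP600125 arrays. Again the groups did not overlap, and the fall was 0.47 (SE 0.08, limma adjusted p = 0.000565), with −0.25 in batch 1 and −0.61 in batch 2. Its SP600125 mean of 5.42 lay under the olfactory receptor level for those arrays, so the size of the fall is uncertain. Epha6, whose promoter is printed above and whose gene lies close to Epha3 on chromosome 16 with 4 coding genes between them, fell by 0.42 (SE 0.08) without overlap. Its SP600125 mean, 5.5, was under that level as well. All 3 of these receptors stayed called under every alternative tried.

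The remaining EphA falls were smaller. Epha5, which binds ephrin-As on topographically mapped axons, fell by 0.36 (SE 0.10), but not after cyclic loess (−0.18, limma adjusted p = 0.103) or quantile normalization (−0.24, limma adjusted p = 0.0507). Epha10 fell by 0.28 (SE 0.08); its other probe set gave −0.01 (SE 0.06), so the fall rests on 1 of 2 probe sets. Epha8 fell by 0.20 (SE 0.07, limma adjusted p = 0.0346) to an SP600125 mean of 5.43, also under the olfactory receptor level. It did not pass without DMSO c (−0.16), d (−0.20) or e (−0.20) or without SP600125 c (−0.18) or d (−0.15), nor with arrays centred on named genes (−0.16) or with the replicate letter as a block (−0.20, limma adjusted p = 0.0641).

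Neither Epha4 (−0.16, SE 0.07, limma adjusted p = 0.0603), a receptor that binds ephrins of both classes, nor Epha7 (−0.10, SE 0.08, limma adjusted p = 0.27) passed. Epha4 passed without DMSO b (−0.20) and without SP600125 b (−0.20), and Epha7 without SP600125 b (−0.17). With each array centred on its median both passed (−0.26 and −0.21), and Epha4 also passed without both b arrays (−0.22), among genes with a mean of at least 5 (limma adjusted p = 0.0461) and with a trended, robust variance (limma adjusted p = 0.0402). Epha1 rose by 0.29 (SE 0.09, limma adjusted p = 0.0187) from a DMSO mean of 4.74. It read 4.68, 4.89, 4.63, 4.83 and 4.65 on the DMSO arrays and 5.42, 4.94, 4.81, 4.96 and 5.01 on the SP600125 arrays. The groups overlapped, the SP600125 a array was far above the rest, and the rise did not pass without it (0.20, limma adjusted p = 0.0509), without DMSO a (0.24), after quantile normalization (0.14), after cyclic loess (0.14) or with each array centred on its median (0.19).

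EphB receptors bind ephrin-Bs and are known from commissural axons and from dendritic spines, and of the 4 measured genes 2 fell and 2 did not pass. Ephb6, whose kinase domain is inactive, read 7.09, 6.85, 7.23, 7.13 and 7.14 on DMSO arrays a to e and 6.64, 7.10, 6.56, 6.59 and 6.78 on SP600125 arrays a to e. The treated b array lay above the control b array, while the other 4 treated arrays lay below all 5 controls. The fall was 0.36 (SE 0.10, limma adjusted p = 0.0119) and did not pass after quantile normalization (−0.27) or cyclic loess (−0.23).

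For Ephb1 the values were 7.27, 6.91, 7.24, 7.33 and 7.20 on the DMSO arrays and 6.66, 7.12, 6.89, 6.67 and 6.83 on the SP600125 arrays. The groups overlapped through the b arrays, and the change was −0.36 (SE 0.10, limma adjusted p = 0.00928). A second, dimmer probe set of Ephb1 moved the other way, by 0.36 (SE 0.06) from a DMSO mean of 5.12 to 5.49. It lay under the olfactory receptor level in both groups. The median of both probe sets changed by 0.003. The direction of Ephb1 thus depends on the probe set, and after cyclic loess the brighter one did not pass either (−0.22). Ephb3 (−0.14, SE 0.06, limma adjusted p = 0.0905) and Ephb4 (−0.001, SE 0.06), a receptor of venous endothelium, did not pass. With each array centred on its median Ephb3 passed (−0.24, limma adjusted p = 0.0058).

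Among the ephrin-As, the ligands anchored to the membrane by lipid, 3 of 5 fell, 1 rose and 1 did not pass. Efna3 read 7.28, 6.97, 7.54, 7.41 and 7.4 on DMSO arrays a to e and 6.2, 6.58, 6.5, 6.64 and 6.74 on SP600125 arrays a to e. All treated arrays were lower than all controls, the highest treated array (6.74) lying under the lowest control (6.97). The change of −0.79 (SE 0.09, limma adjusted p = 6.45e-05) is a 1.72-fold lower level, was −0.73 in batch 1 and −0.82 in batch 2, and ran from −0.89 to −0.65 over the 4 scalings other than the deposited one.

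Efna5, an ephrin-A that forms guidance gradients in sensory maps, read 7.78, 7.44, 7.68, 7.64 and 7.72 on the DMSO arrays and 7.13, 7.75, 7.22, 7.20 and 7.20 on the SP600125 arrays. The SP600125 b array was at the height of the controls, and the other 4 treated arrays lay below all of them. The fall of 0.35 (SE 0.11, limma adjusted p = 0.0153) became −0.52 without both b arrays, and did not pass without SP600125 a (−0.29, limma adjusted p = 0.0508), after quantile normalization (−0.23) or after cyclic loess (−0.17).

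Efna2 fell by 0.35 (SE 0.08, limma adjusted p = 0.00278), a call kept under every alternative, although its value after cyclic loess was smaller (−0.20). Efna4 did not pass (0.03, SE 0.10). Efna1 rose by 0.21 (SE 0.07, limma adjusted p = 0.0232), reading 5.11, 5.12, 5.12, 5.26 and 5.0 on the DMSO arrays and 5.54, 5.37, 5.24, 5.24 and 5.26 on the SP600125 arrays. Its groups overlapped through DMSO d, and the signal stayed under the olfactory receptor level in both groups. The rise did not pass without DMSO a (0.19), b (0.19) or e (0.19), without SP600125 a (0.17), without both b arrays (0.20), after quantile normalization (0.08), after cyclic loess (0.09) or with each array centred on its median (0.11). Efna1, Efna3 and Efna4 are consecutive coding genes on chromosome 3 in the RefSeq table, and of these neighbours Efna3 alone fell.

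Of the 3 ephrin-Bs, the transmembrane ligands, 2 fell and 1 did not pass. Efnb3, a midline repellent of corticospinal axons, read 6.96, 7.04, 7.09, 7.16 and 7.10 on DMSO arrays a to e and 6.69, 6.74, 6.81, 6.63 and 6.84 on SP600125 arrays a to e. The groups were apart, and the b arrays differed too, by −0.31. The fall was 0.33 (SE 0.06, limma adjusted p = 0.001), with −0.29 in batch 1 and −0.35 in batch 2, and −0.20 after cyclic loess.

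Efnb1 read 7.04, 7.10, 7.25, 7.32 and 7.28 on the DMSO arrays and 6.84, 6.95, 7.01, 6.92 and 6.70 on the SP600125 arrays. These groups did not overlap either, and the fall was 0.32 (SE 0.07, limma adjusted p = 0.00365), but it did not pass after cyclic loess (−0.17, limma adjusted p = 0.0714). Efnb2, known from arterial endothelium and from neural progenitors, did not pass (−0.08, SE 0.09). Without both b arrays it passed at −0.23 (limma adjusted p = 0.00814), since Efnb2 was 0.50 higher on SP600125 b than on DMSO b.

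**Figure D2:**
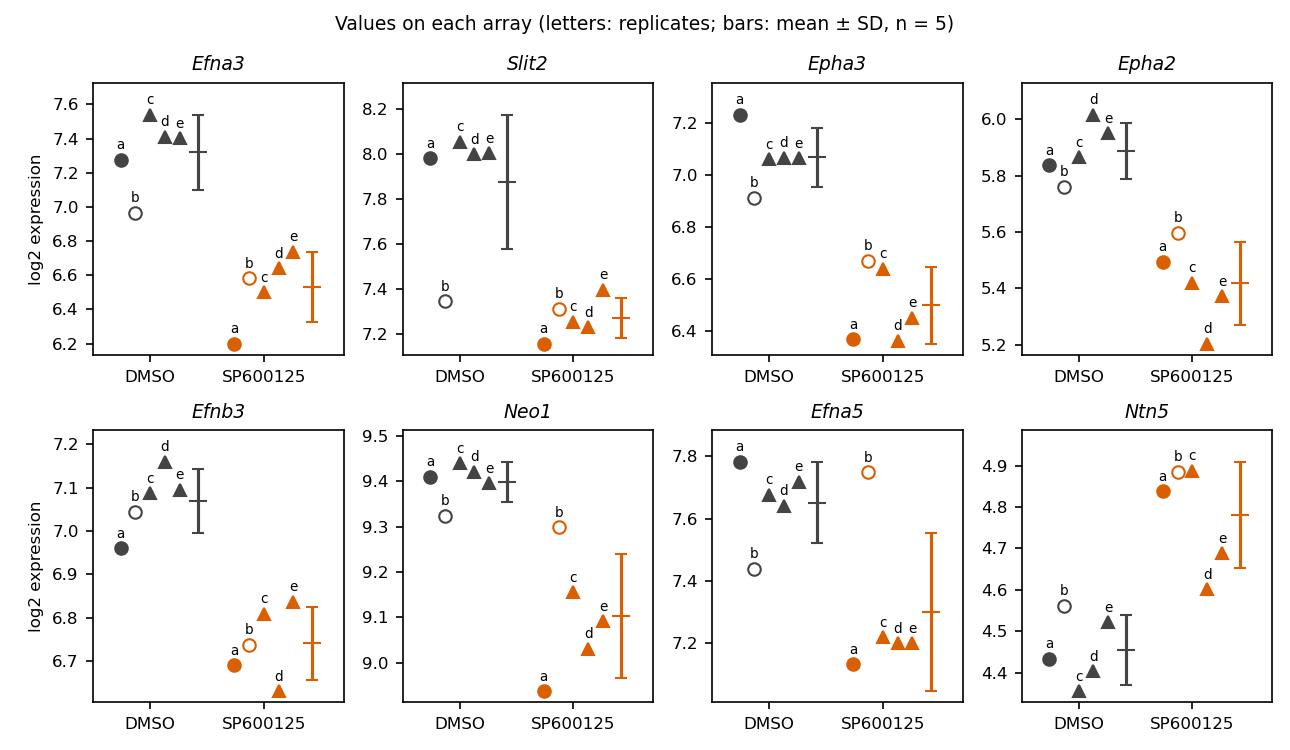
Log2 expression (vertical axes, each with its own range) of 8 guidance genes on the 5 DMSO and the 5 SP600125 arrays; letters name the replicate, circles are drug batch 1 with b open, triangles are drug batch 2, and bars give the mean ± SD (n = 5). Efna3, Epha3, Epha2, Efnb3, Neo1 and Ntn5 are separated between the groups, while DMSO b of Slit2 (7.35) and SP600125 b of Efna5 (7.75) lie with the opposite group.

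Slits, the secreted repellents, followed with 2 falls among 3 genes. Slit2 read 7.98, 7.35, 8.06, 8.0 and 8.01 on DMSO arrays a to e and 7.16, 7.31, 7.25, 7.23 and 7.4 on SP600125 arrays a to e. Of the controls, DMSO b alone reached the treated range, the other 4 lying from 7.98 upward and the treated arrays at 7.4 or less. The fall was 0.61 (SE 0.10, limma adjusted p = 0.000636), a 1.52-fold lower level, with −0.43 in batch 1 and −0.73 in batch 2, and −0.75 without both b arrays.

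Slit1, a brain-enriched Slit, read 7.05, 6.79, 7.14, 7.22 and 7.16 on the DMSO arrays and 6.47, 6.82, 6.5, 6.66 and 6.68 on the SP600125 arrays. The overlap came from the b arrays, with SP600125 b slightly above DMSO b. It fell by 0.45 (SE 0.09, limma adjusted p = 0.00133), a call kept under every alternative, as was that of Slit2. Slit3 did not pass (−0.11, SE 0.07, limma adjusted p = 0.222), but did with each array centred on its median (−0.21, limma adjusted p = 0.0238).

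The Slit receptors Robo1 and Robo2, consecutive coding genes on chromosome 16, both fell, by less than Slit1 and Slit2 did. Robo1 read 8.90, 8.96, 8.96, 8.99 and 8.96 on DMSO arrays a to e and 8.65, 8.88, 8.69, 8.58 and 8.73 on SP600125 arrays a to e. Robo2 read 9.50, 9.40, 9.53, 9.45 and 9.50 on the controls and 9.13, 9.35, 9.30, 9.23 and 9.21 after treatment. Neither gene overlapped between the groups, though the gap was narrow at the b arrays. The falls were 0.25 (SE 0.06, limma adjusted p = 0.00719) for Robo1 and 0.23 (SE 0.06, limma adjusted p = 0.00749) for Robo2. After cyclic loess neither passed (−0.08 and −0.09), and Robo1 did not pass after quantile normalization (−0.12).

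Robo3, which governs midline crossing, and Robo4, an endothelial receptor, are consecutive on chromosome 9 and were not above the olfactory receptor level. Robo3 (0.26, SE 0.11, limma adjusted p = 0.075) and Robo4 (0.13, SE 0.07, limma adjusted p = 0.135) did not pass. Robo3 passed without SP600125 c (0.33) and with arrays centred on named genes (0.29).

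Among the secreted netrins nothing with clear signal changed: Ntn1 (−0.01, SE 0.06), Ntn3 (0.05, SE 0.08) and Ntn4 (−0.04, SE 0.08) did not pass. Ntn1, the classical attractant for commissural axons, turned to a rise of 0.18 after cyclic loess (limma adjusted p = 0.0496). Ntn5 rose by 0.33 (SE 0.07, limma adjusted p = 0.00207). It read 4.43, 4.56, 4.36, 4.40 and 4.52 on the DMSO arrays and 4.84, 4.89, 4.89, 4.60 and 4.69 on the SP600125 arrays, without overlap. All of these values were under the olfactory receptor level, and the rise did not pass after quantile normalization (0.17) or cyclic loess (0.17).

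Ntng1, the netrin-G1 of the presynaptic membrane, read 6.92, 6.57, 6.93, 6.83 and 6.99 on DMSO arrays a to e and 6.27, 6.75, 6.39, 6.31 and 6.5 on SP600125 arrays a to e. SP600125 b lay above DMSO b, whereas the other treated arrays lay below all controls. The change was −0.41 (SE 0.10, limma adjusted p = 0.00524). Its other probe set changed by 0.19 (SE 0.06), so that the 2 probe sets of Ntng1 disagreed in direction, and their median did not pass (−0.11, limma adjusted p = 0.184).

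Of the 6 netrin receptors, 3 fell and 3 did not pass. Neo1 (neogenin), a relative of Dcc that also binds repulsive guidance molecules, read 9.41, 9.32, 9.44, 9.42 and 9.40 on the DMSO arrays and 8.94, 9.30, 9.16, 9.03 and 9.09 on the SP600125 arrays. The groups did not overlap, but SP600125 b was only slightly under DMSO b. Neo1 fell by 0.30 (SE 0.07, limma adjusted p = 0.00444), and by 0.15 after cyclic loess, where it did not pass (limma adjusted p = 0.0749).

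Unc5c, a repulsive netrin receptor, read 7.18, 6.87, 7.20, 7.21 and 7.26 on the DMSO arrays and 6.77, 7.09, 6.79, 6.65 and 6.92 on the SP600125 arrays. Its groups overlapped through DMSO b, which lay below SP600125 b and e, and Unc5c fell by 0.30 (SE 0.09, limma adjusted p = 0.0157). With quantile normalization (−0.20) or cyclic loess (−0.16) Unc5c did not pass. Dcc, the attractive receptor, fell by 0.26 (SE 0.07, limma adjusted p = 0.00593) without overlap, and did not pass after cyclic loess (−0.13). Its change was −0.26 in each drug batch, but within batch 1 it was −0.43 on the a arrays and −0.095 on the b arrays. Unc5a (−0.01, SE 0.06), Unc5b (−0.01, SE 0.06) and Unc5d (−0.04, SE 0.09) did not pass, and both probe sets of Unc5d gave similar values (−0.04 and −0.03).

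The b arrays stood apart in these genes. Over the 39, DMSO b lay below DMSO a by a median of 0.08, and SP600125 b lay above SP600125 a by a median of 0.16. The b arrays alone gave a median change of −0.03 and the a arrays −0.25. Among the 34 guidance genes above the olfactory receptor level, the median of b minus a was −0.090 on DMSO and 0.218 on SP600125. Over all genes above that level it was −0.029 and 0.075. The median change on the b arrays was −0.05 in both sets. On the a arrays it was −0.31 for these guidance genes and −0.19 for all genes above the level. Above the level the direction was thus shared, but the shifts were larger in the guidance genes. Over all 19938 genes the medians of b minus a were 0.016 on DMSO and 0.033 on SP600125. Of the 21 genes that fell, 14 (66.7%) were lower on SP600125 b than on DMSO b, against 76.9% of all genes that fell. On SP600125 a 20 (95.2%) were lower than on DMSO a, against 99.1% of all genes that fell. The 7 genes that were higher on SP600125 b were Epha5, Ephb1, Ephb6, Efna5, Slit1, Ntng1 and Unc5c. Without both b arrays 23 guidance genes fell and 2 rose, 21 of the 23 being the ones above. In that fit 31.6% of all genes fell and 17.1% rose.

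Neuronal markers moved in the same arrays. All 12 lay above the olfactory receptor level, 11 fell and 0 rose by limma, with a median change of −0.55, and their mean log2 level ranged from 8.79 to 9.16 on DMSO and from 8.40 to 9.01 on SP600125 arrays. The DMSO b array had the lowest control value (8.79), and SP600125 b the highest treated one (9.01). Fibroblast and mural markers ranged from 9.41 to 9.50 on DMSO and from 9.05 to 9.17 on SP600125 arrays, with DMSO b highest (9.50), and 4 of 8 fell. Progenitor markers ranged from 7.96 to 8.02 and from 7.70 to 7.81, with 2 of 7 falling (Nes and Vim). Astrocyte markers (7.74 to 7.84 and 7.68 to 7.78) and oligodendrocyte markers (7.47 to 7.52 and 7.26 to 7.33) each had 4 falls, astrocyte markers also 1 rise (Gjb6, 0.33, not above the olfactory receptor level), and endothelial markers (5.45 to 5.55 and 5.52 to 5.62) had 1 fall and 3 rises. Microglial markers (4.53 to 4.78 and 4.76 to 4.95) had 3 rises, with Aif1, Itgam, Csf1r and Ptprc not above the olfactory receptor level. The part of these cell types in the changes of the guidance genes was not tested.

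**Figure D3:**
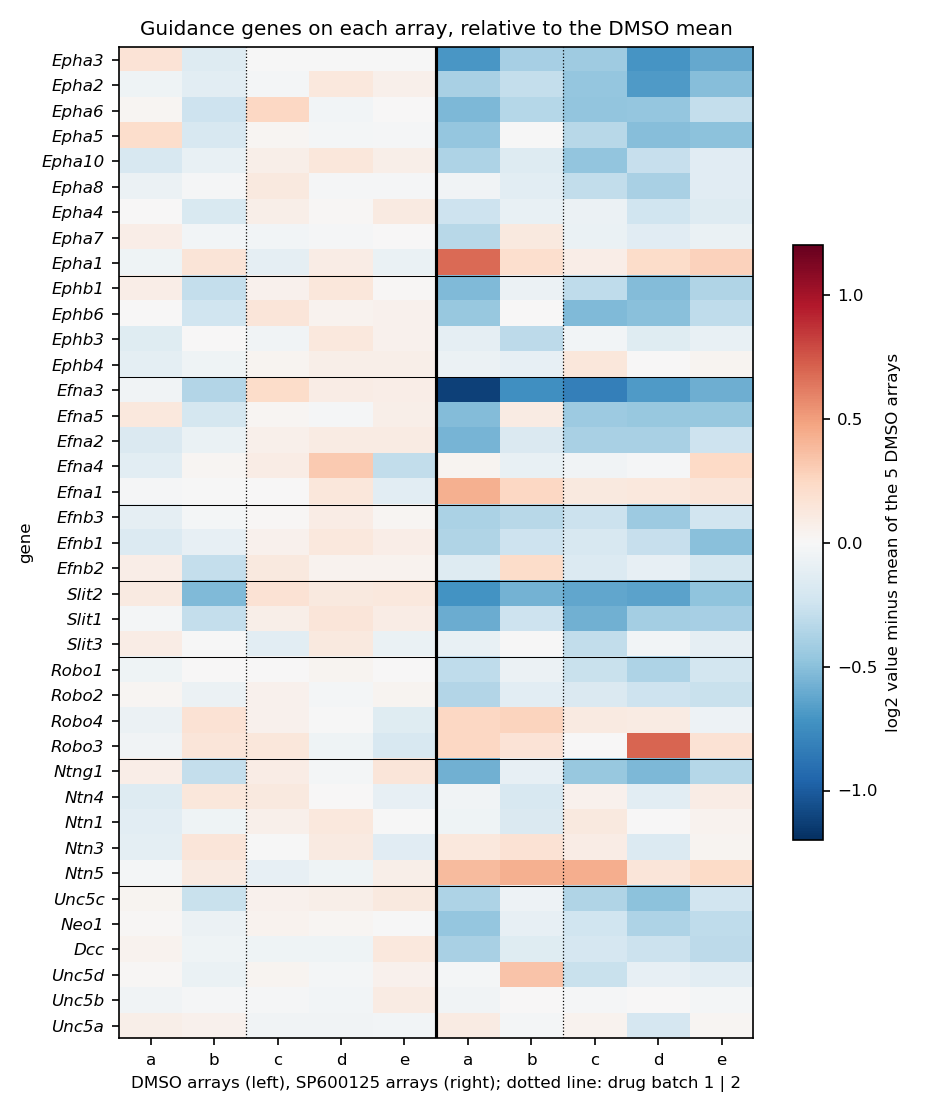
Log2 value of each of the 39 guidance genes on each of the 10 arrays minus the gene's mean over the 5 DMSO arrays (colour scale, blue lower, red higher), with drug batches split by dotted lines and roles by horizontal lines. Blue fills most SP600125 columns, and SP600125 b is paler than SP600125 a. DMSO b has blue cells at several genes, among them Slit2, Efna3, Slit1, Efnb2, Ephb1, Ntng1 and Unc5c.

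Both drug batches showed falls. All 21 genes that fell had a negative change within batch 1 and within batch 2, with medians of −0.24 and −0.44. So had 5923 of the 5962 genes of the whole array that fell, with medians of −0.265 and −0.338. Genes called on both batches together mostly have that sign in each, so it is no separate evidence. Over all 39 genes the medians were −0.12 and −0.26, against −0.01 and −0.05 over all genes. Above the olfactory receptor level the medians were −0.15 and −0.31 for guidance genes and −0.14 and −0.17 for all genes, so in batch 1 the guidance genes lay close to the rest. The interaction of treatment and drug batch asked whether the response differed between the lots. No gene of the 19938 passed it (0.00% called by limma), and 1852 genes (9.29%) had an unadjusted p under 0.05. Among guidance genes 3 did, with a change in batch 2 minus that in batch 1 of −0.36 for Epha2, −0.38 for Unc5d and −0.42 for Ephb6, none passing after adjustment (limma adjusted p from 0.51 to 0.524). The b arrays are in batch 1, so the lot and these arrays cannot be told apart there.

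Scaling of the arrays changed how many guidance genes passed. With quantile normalization 16 fell and 0 rose, with cyclic loess 11 fell and 1 rose, with each array centred on its median over all probe sets 25 fell and 1 rose, and with centring on named genes 20 fell and 4 rose. Over all genes the percentage that fell was 22.5%, 17.7%, 43.1% and 25.3% in the same order. The guidance genes stayed above it, but it includes genes not above the olfactory receptor level, of which 2.15% fell as deposited. Shares among genes above that level were not computed for these scalings. Rises made up 12.5% of the calls among guidance genes as deposited and 0% after quantile normalization, and among all genes 36.2% as deposited, 25.0%, 34.7%, 14.8% and 46.9%. Centring on all probe sets moved the median of all genes by −0.10. Relative to the median of all genes, the median of the guidance genes lay at −0.20 as deposited, at −0.13 after quantile normalization and at −0.07 after cyclic loess. Either centring shifts all genes alike, so it cannot change this difference. Of the 24 genes that rose or fell, 8 kept their call under every alternative tried, left-out arrays included: Epha2, Epha3, Epha6, Efna2, Efna3, Efnb3, Slit1 and Slit2, all falls. Of the 15 that did not pass, 8 did not pass under any.

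**Figure D4:**
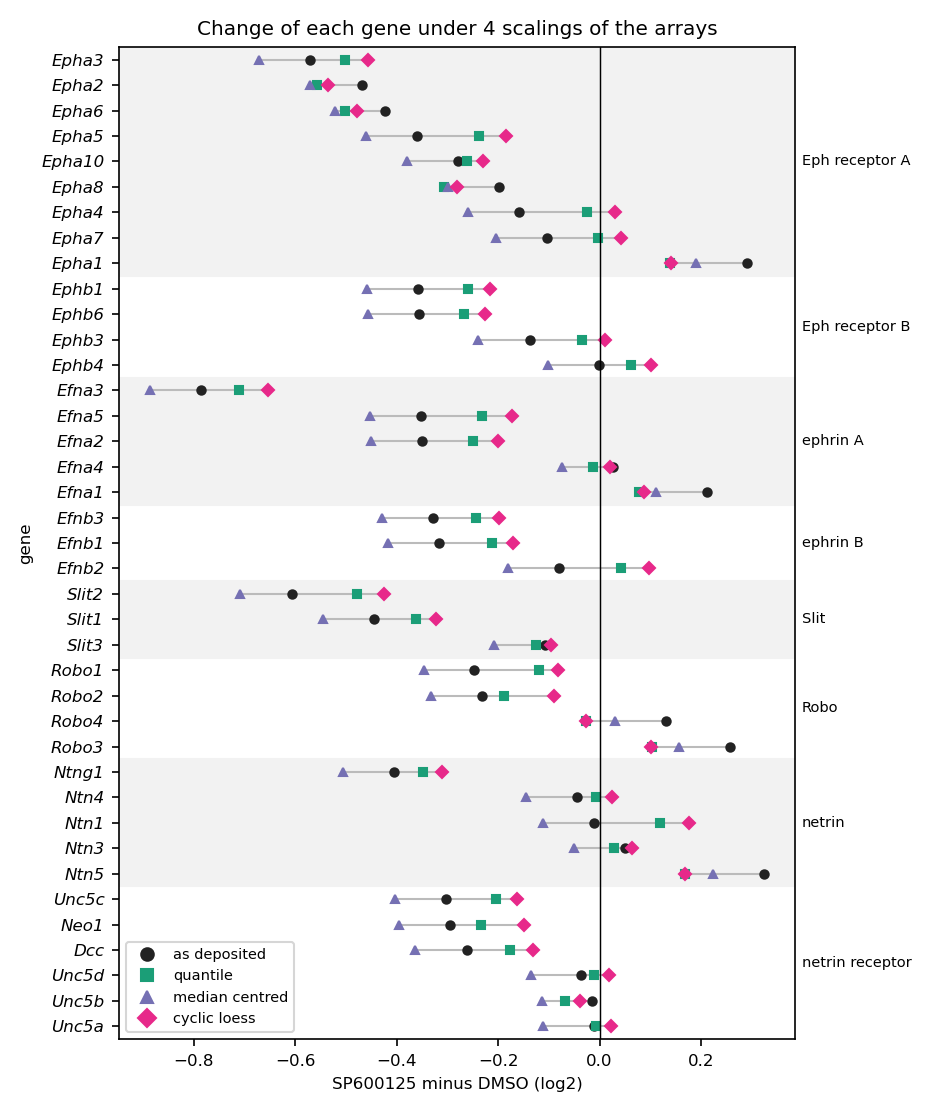
Change of each guidance gene (SP600125 minus DMSO, log2, horizontal axis) under 4 scalings: as deposited, quantile normalization, each array centred on its median, and cyclic loess; grey lines join the 4 values of a gene. Efna3 stays between −0.89 and −0.65, Slit2 between −0.71 and −0.42 and Epha3 between −0.67 and −0.46, while Ntn1 runs from −0.11 to 0.18.

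Genes that act with these receptors inside the cell or beside them at the membrane were read from the same fit. Of 66 measured of 68 listed partners, 46 fell (69.7%), 0 rose and 20 did not pass by limma, with a median change of −0.22, where 46.4% of all genes above the olfactory receptor level fell. Of the 66 partners, 64 lay above that level. After quantile normalization 25 partners fell and 1 rose, and 22.5% of all genes fell. After cyclic loess 20 partners fell and 2 rose, and 17.7% of all genes fell. The shares of all genes in these 2 fits include genes not above the level.

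Among 25 partners of Ephs and ephrins, 17 fell. Grip1, a PDZ scaffold that binds ephrin-Bs, had the largest fall (−0.46, SE 0.10), followed by Sipa1l1, a RapGAP (−0.44, SE 0.06), and the Eph adaptor Anks1 (−0.39, SE 0.08). Of 20 partners of Slits and Robos, 15 fell, led by the actin-binding Cap2 (−0.61, SE 0.07), the heparan sulfate proteoglycan Gpc1 (−0.42, SE 0.07) and the Robo-binding GTPase-activating protein Srgap3 (−0.41, SE 0.09). The GTPase genes Rac1 (−0.08, SE 0.06) and Cdc42 (−0.09, SE 0.06) did not pass.

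Of 21 netrin-related partners, 14 fell, with the ubiquitin ligases Trim9, which binds Dcc, at −0.64 (SE 0.10) and its relative Trim67 at −0.57 (SE 0.11), and the microtubule protein Map1b at −0.55 (SE 0.11). Draxin, a secreted ligand of Dcc, did not pass (0.13, SE 0.07). The largest falls of each partner list passed under every alternative tried, while Grip1, Srgap3, Trim67 and Map1b were higher on SP600125 b than on DMSO b, by 0.16, 0.08, 0.06 and 0.13. Draxin and the 2 GTPase genes were named after their values were seen.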

How the data were processed

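RNA of 10 samples (5 DMSO, 5 SP600125) was measured on whole-transcript arrays, 1 per sample, with 35556 probe sets. The deposited values are log2 expression values; the log2 scale was read off their range (1.90 to 13.8). The submitters' processing notes name oligo 1.14.0; its role, and the background correction and normalization, were not given in the sources used here. Values were used as deposited. Log2 values of dim probe sets compress changes towards background.

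Of the probe sets, 21789 carried 1 symbol in the platform annotation, giving 19938 genes, each by its brightest probe set. Differences were tested with limma 3.58.1 (R 4.3.3; lmFit, eBayes, two-sided, drug batch as a term, 7 residual degrees of freedom). The fit was tested on simulated data. No coordinates of array features are given. Alternatives were other scalings, a filter at a mean of 5, a trended variance, the median over probe sets, other models and left-out arrays. The members and lists were chosen with earlier results of these data known. Every member is named; values on every array are given for the up to 2 largest called changes per role and for every rise, and partners for the up to 3 largest called changes per list and direction. Promoters came from RefSeq. Same-lettered samples did not deviate together (correlations of deviations from -0.21 to 0.10), so letters were not treated as pairs.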

Additional observations from a re-analysis of the deposited data

Results flagged for a closer look

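A Dixon test at the 95% level was applied to each guidance gene within each group of 5 arrays, where chance marks about 1 in 20 groups. It marked 6 values in 5 genes. DMSO b was the low value of Slit2 (7.35, the others 7.98 to 8.06), of Efnb2 (7.23, the others 7.55 to 7.63) and of Unc5c (6.87, the others 7.18 to 7.26). SP600125 b was the high value of Efna5 (7.75, the others 7.13 to 7.22) and of Efnb2 (7.73, the others 7.31 to 7.42). DMSO e was the high value of Unc5b (6.01, the others 5.87 to 5.90). Thus 5 of the 6 lay on a b array.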

How the results depend on the processing

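The falls of the guidance genes numbered 21 as deposited and between 11 (cyclic loess) and 25 (arrays centred on all probe sets) under the alternatives, and 20 to 23 with 1 array left out. With the median over the probe sets of a gene they numbered 18, and the median change was −0.14 in place of −0.23 (−0.12 in place of −0.20 relative to all genes). The rises, 3 as deposited, numbered 0 after quantile normalization, 1 after centring on all probe sets, 1 after cyclic loess, 1 among genes with a mean of at least 5 (where Epha1 and Ntn5 are not tested) and 1 to 4 with 1 array left out, 1 without DMSO a and 1 without SP600125 a. Partner falls, 46 as deposited, numbered 25 after quantile normalization and 20 after cyclic loess, and partner rises, 0 as deposited, 1 and 2. 2 values turned: Ntn1 to 0.18 after cyclic loess, and Ephb1 to 0.003 for the median over its probe sets. Another 42 sign changes, in 13 genes, arose where neither fit called the gene. The cause of these differences was not tested. The interaction called 0 guidance genes under each scaling and filter tried.

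With the replicate letter as a replicate block, 20 guidance genes fell and 3 rose, and 39 partners fell; Epha8 was the member that lost its call. With 2 arrays per group in batch 1, the response in that batch has little precision. Genes under the olfactory receptor level carry little signal over background.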
